A study of Caenorhabditis elegans with 59 samples.

Results

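The mock-treated transcriptomes of 2 sterile C. elegans strains, glp-1(e2141) and fem-3(q20), were compared after 48 h on plates. The comparison takes the 3 libraries whose titles name glp-1 with ethanol at 48 h and the 3 whose titles name fem-3 with ethanol at 48 h, which makes 6 of the 59 samples of the series. Strain JTL667 carries glp-1(e2141), hsf-1::aid::gfp at the endogenous hsf-1 gene and ieSi57, a transgene in which the eft-3 promoter drives TIR1::mRuby in somatic cells. Strain JTL670 carries fem-3(q20), the same tagged hsf-1 and the same TIR1 transgene, and its label also lists unc-119(ed3). Both strains were raised at 25°C from synchronized L1 larvae to Day 1 adults, about 120 animals per sample were moved to plates with ethanol, the solvent of auxin, and whole animals were collected 48 h later. No auxin was given to these 6 samples by their titles, so HSF-1, the heat shock transcription factor that auxin would remove, was left in place. The agent tag in the labels names auxin for 3 of the 6, replicate 3 of glp-1(e2141) and replicates 2 and 3 of fem-3(q20). Groups follow the titles, which the column names of the deposited table also follow, and the heat shock and chaperone results, which depend on this choice, are given with the other grouping. Leaving out the 3 leaves 2 glp-1(e2141) libraries and 1 of fem-3(q20), called libraries with agreeing labels below, where the lone library is assumed to vary like the other groups. Nothing in the labels says whether replicates came from separate cultures, so the spread between libraries may be technical. The p-values rest on the spread between replicates over all 35 libraries of these strains, not on these 6 alone.

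In C. elegans, germline stem cells at the distal end of each gonad arm are kept dividing by GLP-1, a Notch receptor. The e2141 allele is temperature sensitive, and animals raised at the restrictive temperature lose their stem cells to early meiosis and make almost no germ cells. FEM-3 promotes the male fate of germ cells, and q20 is a gain-of-function allele, so that at the restrictive temperature the gonad fills with sperm and makes no oocytes. Animals without germline stem cells live long, which depends on transcription factors of the soma such as DAF-16, DAF-12, HLH-30 and HSF-1, whereas fem-3(q20) serves as the sterile control of normal lifespan. The comparison asks which transcripts differ between a sterile animal without a germline and a sterile animal with a sperm-filled one. In RNA of whole animals, fewer cells of a type and less RNA per cell cannot be told apart.

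The 6 libraries had between 13434894 and 17129756 reads on the listed genes, and a gene with 0 reads could have had up to 0.159 to 0.190 CPM (the level of 3 reads, counting error only). Between 1919 and 2382 of the 15364 genes of the table had no read in a glp-1(e2141) library, against 126 to 280 in a fem-3(q20) library. Reads on rRNA genes made 4.2 to 4.96% of the reads in glp-1(e2141) and 1.97 to 3.09% in fem-3(q20), and their part in the results was not tested. Of 14269 genes tested, 10069 (70.6%) were differentially expressed (DE), that is, their limma adjusted p was below 0.05 and their level averaged 2 CPM or more in the 35 libraries tabulated for these strains. On the deposited scale, log2 CPM (reads per gene scaled by a normalized library size) with a small prior, 4242 genes (29.7%) were higher and 5827 (40.8%) were lower in glp-1(e2141). Of the DE genes, 1929 had a log2 difference (glp-1 minus fem-3) under -5, and 205 had one over 3. In 33.9% of the genes tested all 3 glp-1(e2141) libraries lay above all 3 of fem-3(q20), and in 45.4% below them.

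The choice of scale moves every one of these differences by the same amount. The median log2 CPM of the genes tested was 3.0 to 3.06 in the glp-1(e2141) libraries and 3.96 to 4.00 in the fem-3(q20) libraries. Centring each library on its median therefore raised each log2 difference by 0.95, and the median difference over all genes went from -0.25 to 0.70. With median centring, 6325 genes (44.3%) were higher and 4058 (28.4%) were lower in glp-1(e2141), so that the higher genes made 60.9% of the calls in place of 42.1%. All 4242 genes that were higher on the deposited scale stayed higher, 4058 of the 5827 lower genes stayed lower, and 336 changed from lower to higher. Another scale, chosen after seeing the data, sets the median of a list of neuronal genes to the same level in all libraries. It lowers each log2 difference by 1.01, and 1404 genes (9.84%) were then higher and 7492 (52.5%) lower. Counts on all 3 scales are given for each gene family, since log2 differences between -0.95 and 1.01 change sign with the scale. Each count is to be read beside the share of all genes tested on the same scale. Those shares are 29.7% higher and 40.8% lower as deposited, 44.3% and 28.4% after median centring, and 9.84% and 52.5% on the neuron scale.

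**Figure D1:**
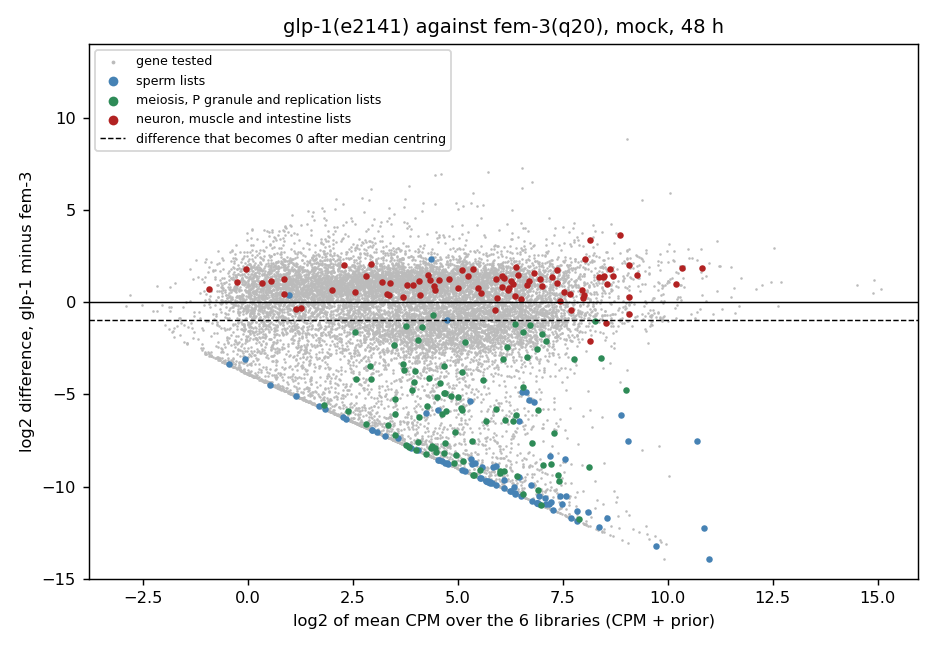
Each point is one of the 14269 genes tested, with the log2 of its mean CPM over the 6 libraries on the x axis and its log2 difference, glp-1(e2141) minus fem-3(q20), on the y axis. The sperm genes reach down to -13.94 along the edge set by genes without reads in glp-1(e2141), the neuron, muscle and intestine genes lie mostly between 0 and 3.65, and the dashed line at -0.95 marks the difference that becomes 0 after median centring.

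The genes that name the strains were read first. Transcripts of fem-3 (WBGene00001413, WBcel235 chromosome IV from 9104966 to 9107607) were at 0.867, 1.004 and 0 CPM in glp-1(e2141) and 18.3, 22.6 and 19.6 CPM in fem-3(q20). This is a log2 difference of -5.28 (SE 0.60, limma adjusted p = 6.8e-09), with no overlap between the groups. Transcripts of glp-1 itself (WBGene00001609, chromosome III from 9092241 to 9099698) were at 23.0, 30.9 and 21.4 CPM in glp-1(e2141) and 72.1, 70.4 and 69.7 CPM in fem-3(q20), a log2 difference of -1.51 (SE 0.20, limma adjusted p = 9.2e-08). Both alleles are point mutations, so these levels do not check the labels. The major sperm protein genes do, and they were near 0 in all 3 libraries named glp-1 and abundant in all 3 named fem-3, whatever the agent tag.

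Genes of sperm were almost absent from glp-1(e2141). Major sperm proteins are the small cytoskeletal proteins that move the crawling sperm of nematodes. Their 31 genes summed to 1.73, 1.59 and 0.443 CPM in the glp-1(e2141) libraries and to 5724, 5188 and 4948 CPM in the fem-3(q20) libraries. Of them, 30 were lower in glp-1(e2141) and 0 higher on all 3 scales, beside 40.8% and 29.7% of all genes tested on the deposited scale, and 23 had no read in any glp-1(e2141) library. Their median log2 difference was -10.005, or -9.75 with genes at 0 set to the level of 3 reads, against -0.25 over all genes tested. As the genes are near-identical copies, the counting may have divided reads among them, and single members are uncertain. The member with the most negative difference, msp-77, had 0 CPM in each glp-1(e2141) library and 451, 392 and 403 CPM in fem-3(q20), at least 2331-fold lower.

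The other sperm genes were low in glp-1(e2141) as well. Of 43 genes for sperm assembly, activation and fertilization, 40 were lower and 1 was higher in glp-1(e2141) (39 and 1 after median centring, 40 and 1 on the neuron scale), with a median log2 difference of -8.54 (-8.18 with genes at 0 set to 3 reads). The sperm phosphatase gene gsp-3 was at 0, 0 and 0 CPM in glp-1(e2141) and at 456, 475 and 452 CPM in fem-3(q20), at least 2587-fold lower. The sperm gene smz-1 had 1 read in the 3 glp-1(e2141) libraries together and 34278 in those of fem-3(q20), a ratio of 33692 (95% exact interval 6047 to 1330790, counting error only). The exception, mpk-2, is a MAP kinase gene and was at 28.98, 41.2 and 32.6 CPM in glp-1(e2141) and 6.31, 5.42 and 8.498 CPM in fem-3(q20) (log2 difference 2.33, SE 0.20, limma adjusted p = 3.0e-11). At the other end, spe-39, whose product also acts in vesicle traffic of somatic cells, was at 17.2, 22.4 and 14.3 against 36.0, 30.5 and 39.3 CPM and differed by -0.98 on the deposited scale and -0.03 after median centring. Of the 16 genes of the ssp and ssq families of small sperm proteins, 15 were lower and 0 higher on all 3 scales.

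The 10 DE genes with the most negative differences were ssq-4, T23B3.5, ssq-3, E03H12.5, Y57G11A.2, gipc-2, B0205.10, cylc-1, sss-1 and spch-3, all on chromosomes I or IV. The largest was ssq-4 (WBGene00006053, chromosome IV from 5016479 to 5017766), with 0, 0 and 0.9501 CPM in glp-1(e2141) and 4179.5, 4159 and 3727 CPM in fem-3(q20). The only glp-1(e2141) library with reads of ssq-4 was replicate 3, the one whose agent tag disagrees with its title. Genes T23B3.5 and Y57G11A.2 had no read in glp-1(e2141), and were at 2082, 1888 and 1791 CPM and at 1054, 1087 and 1065 CPM in fem-3(q20). They were at least 10781-fold and 6000.0-fold lower in glp-1(e2141). The protamine-like sperm chromatin genes spch-1, spch-2 and spch-3 had 0 reads in all glp-1(e2141) libraries and averaged 534, 344 and 831 CPM in fem-3(q20). Together, the 1929 DE genes with a log2 difference under -5 took 25.0, 23.3 and 23.1% of the reads of the fem-3(q20) libraries and 0.071, 0.073 and 0.087% of the reads of the glp-1(e2141) libraries.

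Regulators of germ cell number and sex were mostly lower too. Of 23 measured genes for stem cell maintenance and the choice between sperm and oocyte, 21 were lower and 2 higher in glp-1(e2141) (17 and 4 after median centring, 21 and 0 on the neuron scale; median log2 difference -4.63). The targets of GLP-1 signalling in stem cells, lst-1 and sygl-1, were both lower. For lst-1 the levels were 4.27, 4.81 and 1.203 against 46.0, 52.8 and 48.8 CPM (log2 difference -4.01, limma adjusted p = 6.1e-11), and sygl-1 had 3 reads in glp-1(e2141) and 242 in fem-3(q20), a ratio of 79.3 (95% exact interval 26.8 to 387). The RNA-binding regulator gld-1, which moves germ cells from division to meiosis, was at 1.05, 1.80 and 1.84 against 68.9, 71.9 and 82.8 CPM (log2 difference -5.50, SE 0.59, limma adjusted p = 1.9e-09). The sperm-fate genes fog-1 and fog-3 were at 1.24, 2.27 and 2.47 against 143, 145 and 152 CPM and at 0, 0 and 0 against 25.6, 23.8 and 25.4 CPM, which for fog-3 means at least 139.8-fold lower. Both fog genes lacked any overlap between the groups. The 2 higher genes were tra-1, the zinc finger factor at the end of the sex determination pathway (55.7, 58.8 and 40.3 against 25.1, 33.9 and 27.1 CPM, log2 difference 0.84, limma adjusted p = 3.9e-04), and tra-2, the receptor upstream of it (43.3, 57.9 and 39.5 against 30.6, 31.4 and 31.9 CPM, log2 difference 0.56, limma adjusted p = 0.0025), and both changed sign on the neuron scale. fem-1 and fem-2, the partners of fem-3, differed by -1.29 and -0.63, and for fem-2 the sign turned after median centring (0.32).

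Genes of the rest of the germline were lower too. All 24 P granule and germline small RNA genes were lower on the deposited and the neuron scales and 21 after median centring, with a median log2 difference of -6.71. The P granule gene pgl-1 was at 0, 0 and 0.443 against 244, 241 and 240.3 CPM (log2 difference -10.19, SE 0.57, limma adjusted p = 1.5e-15). The helicase gene glh-1 kept 37.7, 35.4 and 35.7 CPM in glp-1(e2141), against 985, 1019 and 979 CPM in fem-3(q20). The least different of the list were csr-1 and ergo-1, Argonaute genes, at 217, 256 and 153 against 382, 432 and 408 CPM and at 16.5, 15.2 and 16.2 against 25.5, 26.3 and 27.4 CPM, and ergo-1 changed sign after median centring (-0.72 to 0.23). All 35 meiotic genes were lower on the deposited scale and the neuron scale and 34 after median centring (median -6.60). Synapsis gene syp-4 had 0 reads in glp-1(e2141) and 247, 249.6 and 257 CPM in fem-3(q20), at least 1409-fold lower.

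Cell division genes were lower as well. All 33 replication and cell cycle genes were lower on the deposited and neuron scales, and 31 after median centring (median -5.11). The kinetochore kinase gene bub-1 was at 1.11, 0.687 and 0 against 339, 346 and 308 CPM (log2 difference -9.37, SE 0.67, limma adjusted p = 4.5e-13), whereas the licensing genes cdc-6 and orc-2 differed least, by -1.34 and -1.32. Of 27 histone genes tested, 8 (29.6%) were lower and 7 (25.9%) higher, beside 40.8% and 29.7% of all genes tested (8 and 8 after median centring, 9 and 3 on the neuron scale). Linker histone genes went both ways: hil-4 and hil-5 had no read in glp-1(e2141) and 75.1, 78.1 and 88.5 and 64.4, 65.1 and 77.5 CPM in fem-3(q20), while hil-1 was at 61.8, 65.4 and 73.1 against 6.93, 7.04 and 5.37 CPM (log2 difference 3.35, limma adjusted p = 1.7e-13). Core histone transcripts mostly lack a poly(A) tail and the libraries were poly(A)-selected, so the core histone genes are measured incompletely here.

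Oocyte genes were read from fem-3(q20) although the strain makes no oocytes at 25°C. Of 27 oocyte and eggshell genes tested, 22 were lower and 1 was higher in glp-1(e2141) (22 and 2 after median centring, 24 and 0 on the neuron scale). The yolk receptor gene rme-2 was at 0 reads in all glp-1(e2141) libraries and at 22.1, 20.9 and 24.8 CPM in fem-3(q20). The polarity gene mex-5 had 3 reads in glp-1(e2141) and 5694 in fem-3(q20), a ratio of 1866 (95% exact interval 638 to 9049). Of the others, cey-3, a cold-shock domain gene, had 0 reads against 73.7, 60.1 and 78.0 CPM. The eggshell genes perm-2 and perm-4 were exceptions, at 1332, 1609.8 and 1255 against 1053, 1167 and 1165 CPM and at 2782, 3110.3 and 2411 against 1671, 2002 and 1811 CPM. perm-4 was higher in glp-1(e2141) (log2 difference 0.59, limma adjusted p = 0.0085) but changed sign on the neuron scale, and perm-2 did not pass the test on the deposited scale (log2 difference 0.30, limma adjusted p = 0.28).

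**Figure D2:**
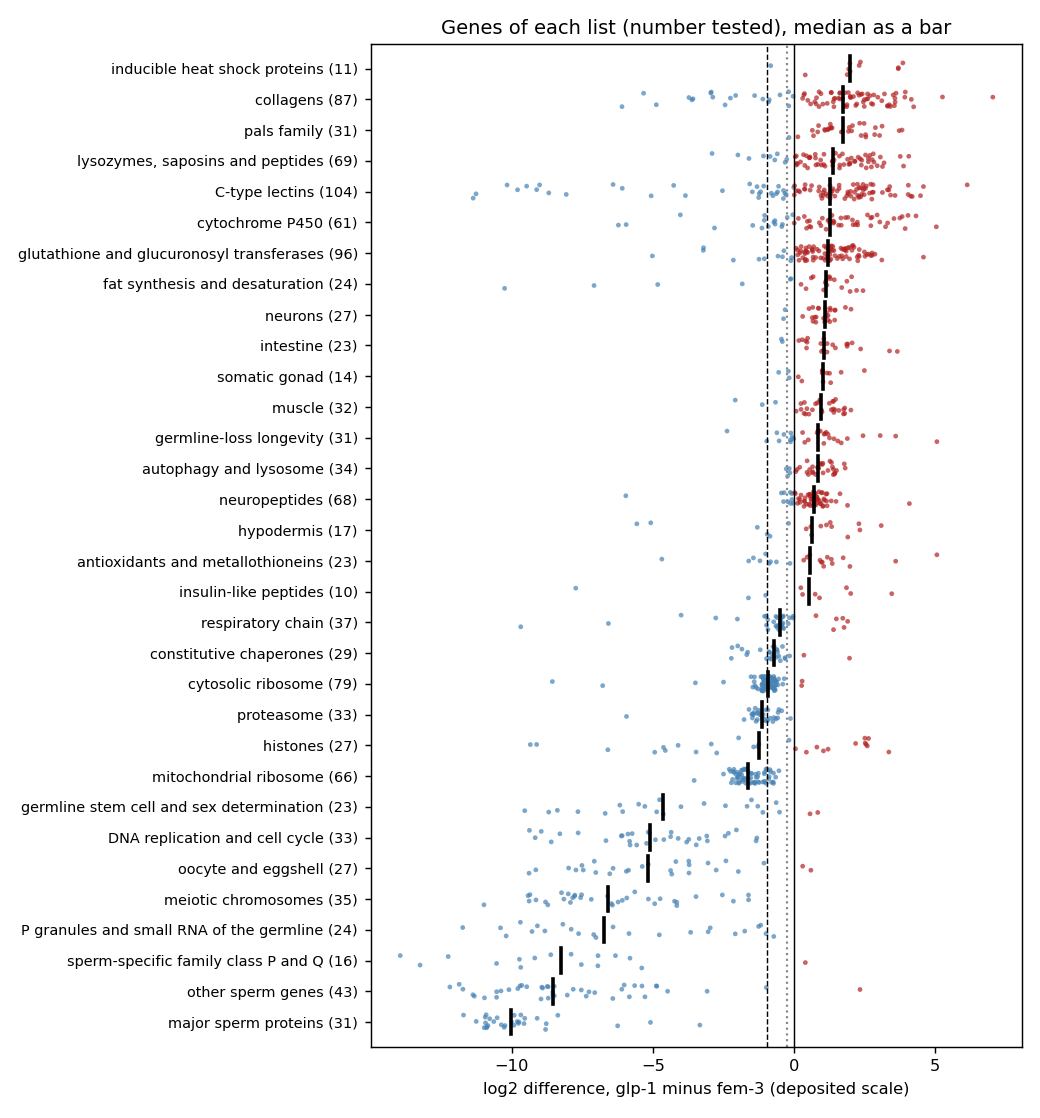
Each point is a gene of a list, placed by its log2 difference, glp-1(e2141) minus fem-3(q20), with the number of genes tested beside the name of the list and the median as a black bar. Germline and sperm lists have medians from -4.63 to -10.005, the ribosome and proteasome lists lie around the dashed line at -0.95 (0 after median centring; dotted line, median of all genes), and the inducible heat shock list has the highest median at 1.98.

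Called genes were unevenly spread over the chromosomes. In C. elegans the X chromosome is largely silent in germ cells. It held 1837 of the 14269 genes tested (12.9%), but 9 of the 1929 DE genes with a log2 difference under -5 (0.467%) and 90 of the 5827 lower genes (1.54%). In the other direction it held 1080 of the 4242 higher genes (25.5%). On the deposited scale, 58.8% of the genes tested on X were higher in glp-1(e2141) and 4.90% lower. Chromosome I showed the reverse, with 17.4% higher and 56.7% lower, and chromosome V lay between, with 34.4% higher and 32.4% lower. The median log2 difference was 1.07 on X, 0.30 on V and between -1.10 and -0.64 on the other chromosomes, and after median centring it was 2.02 on X, 1.25 on V and -0.15 on I. After median centring X held 1.01% of the lower genes, and 3.58% on the neuron scale. The neuron scale lowers each of the deposited medians by 1.01, which is close to the 1.07 of X. None of the sperm, stem cell, P granule, meiotic or replication lists had a gene on X among those tested.

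**Figure D3:**
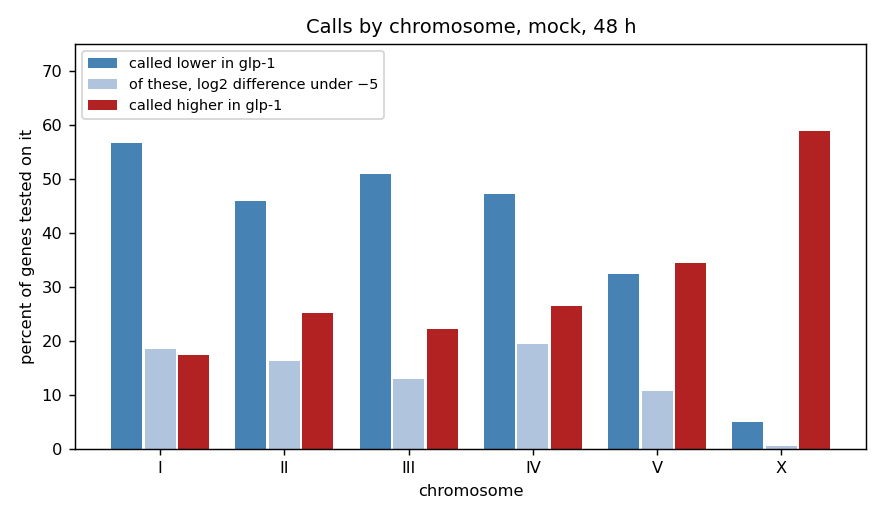
Bars give, for each chromosome, the percent of its tested genes that were lower in glp-1(e2141), lower with a log2 difference under -5, and higher in glp-1(e2141). On the deposited scale shown, the higher genes make 58.8% and the lower genes 4.90% on X, against 17.4% and 56.7% on chromosome I.

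Among the higher genes, those with the largest differences were clx-1, dhs-26, col-183, asp-14, scl-20, C30G12.2, H39E23.3, nas-20, clec-61 and C14C6.5. The top gene, clx-1 (WBGene00000551, chromosome IV from 7734648 to 7736324), was at 1074, 1452 and 615 CPM in glp-1(e2141) and 1.05, 0.635 and 10.5 CPM in fem-3(q20) (log2 difference 8.86, SE 0.91, limma adjusted p = 8.0e-10). Its fem-3(q20) libraries were unequal, with replicate 3 an order above the others, yet all lay far below those of glp-1(e2141). The short-chain dehydrogenase gene dhs-26 was at 187, 114 and 249 against 0.248, 0.635 and 4.88 CPM (log2 difference 7.28, SE 0.75), and the collagen gene col-183 at 80.4, 103.6 and 129 against 0.743, 0.231 and 1.43 CPM (log2 difference 7.04, SE 0.47). Secreted enzymes and lectins followed, with the protease gene nas-20 at 164, 150.2 and 229 against 3.16, 1.4998 and 2.74 CPM and the lectin gene clec-61 at 9.66, 18.3 and 16.97 against 0.186, 0 and 0.110 CPM. All 10 stayed higher on each of the 3 scales.

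Lists of somatic tissues had median log2 differences close to 1. Of 27 neuronal genes tested, 18 were higher and 0 lower (19 and 0 after median centring, 2 and 4 on the neuron scale), with a median log2 difference of 1.08. For muscle 22 of 32 were higher and 3 lower, with a median of 0.95 (28 and 1 after median centring, 6 and 7 on the neuron scale). Intestinal genes had 17 of 23 higher and 1 lower and a median of 1.05 (23 and 0, then 7 and 5), and genes of the somatic gonad 9 of 14 higher, 0 lower and a median of 1.01 (12 and 0, then 2 and 3). On the neuron scale the medians of muscle, intestine and somatic gonad were -0.06, 0.04 and -0.0032. The hypodermal list stood lower, at a median of 0.62, with 4 of 17 higher and 2 lower (6 and 2 after median centring, 0 and 5 on the neuron scale). These are 23.5% and 11.8%, beside 29.7% and 40.8% of all genes tested on the deposited scale.

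Single tissue genes lay well off these medians. In muscle, the body wall myosin gene unc-54 was at 1069.6, 662 and 843 against 159, 259 and 221 CPM (log2 difference 2.01, SE 0.38, limma adjusted p = 3.2e-05), while the actin genes act-1 and act-2, which share sequence with one another, had differences of -1.13 and -2.08, the former not passing the test after median centring. Gut esterase gene ges-1 was at 476, 565 and 514 CPM in glp-1(e2141) and 43.3, 48.2 and 58.6 CPM in fem-3(q20) (log2 difference 3.38, SE 0.13, limma adjusted p = 1.1e-19). Lysosomal aspartic protease gene asp-3 was at 853, 808 and 917 against 57.4, 69.9 and 78.7 CPM (log2 difference 3.65, SE 0.16), yet elt-2, the GATA factor of intestinal identity, was at 23.8, 25.9 and 20.3 against 9.28, 9.69 and 12.1 CPM (log2 difference 1.17). Of the hypodermal list, nhr-23, a nuclear receptor gene of molting that is also known to act in spermatogenesis, was at 1.49, 2.48 and 3.17 against 107, 122 and 113 CPM. The GATA factor gene elt-1 was at 3.90, 2.22 and 0.253 against 53.3, 49.4 and 51.4 CPM, so both were lower in glp-1(e2141) (log2 differences -5.57 and -5.07). The neuronal gene unc-119 was at 9.85, 7.72 and 5.51 against 1.79, 1.90 and 1.59 CPM (log2 difference 2.02, limma adjusted p = 3.9e-05), and its ed3 mutation is listed in the label of the fem-3(q20) strain alone.

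Yolk is made in the intestine and taken up by oocytes, which neither strain has. Transcripts of the 6 vitellogenin genes summed to 165975, 140662 and 112697 CPM in glp-1(e2141) and 67145, 83374 and 83958 CPM in fem-3(q20). Of the 6 genes, 5 were higher and 0 lower on the deposited scale (6 after median centring, 0 on the neuron scale). vit-5 was at 51319, 43279 and 33685 against 15539, 20154 and 20182 CPM (log2 difference 1.19, SE 0.25, limma adjusted p = 1.0e-04), with groups that did not overlap. vit-1, vit-3, vit-4 and vit-6 differed by 0.90, 1.08, 1.10 and 0.71, and vit-2 by 0.52 without passing the test (limma adjusted p = 0.073). In several other settings vit-2 did pass it. Among them were median centring (1.47, limma adjusted p = 9.5e-06), the 6 libraries alone (0.52, limma adjusted p = 0.018), library quality weights (0.60, limma adjusted p = 0.011) and the agent tag (0.72, limma adjusted p = 0.024). On the neuron scale vit-1, vit-2 and vit-6 changed sign, and with single libraries left out vit-6 lost its call in 5 of 6 fits. vit-3, vit-4 and vit-5 are close copies whose reads the counting may have divided.

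Genes tied to longevity without a germline were mostly higher in glp-1(e2141): 19 of 31 were higher and 4 lower (26 and 1 after median centring, 5 and 11 on the neuron scale), with a median of 0.86. The transcription factor genes of the pathway had differences up to about the median of the neuron list. Of them, daf-16 was at 185, 239.7 and 163 CPM in glp-1(e2141) and 132, 162 and 155 CPM in fem-3(q20), a log2 difference of 0.38 that did not pass the test (SE 0.20, limma adjusted p = 0.083). This depended on the setting: daf-16 was called higher after median centring (1.33, limma adjusted p = 2.9e-07), by agent tag (0.56, limma adjusted p = 0.0091), with quality weights, with a replicate block and without replicate 3 of glp-1(e2141) (0.50, limma adjusted p = 0.04), and lower on the neuron scale (-0.63, limma adjusted p = 0.0093). The nuclear receptor gene daf-12 differed by 1.14, the autophagy regulator hlh-30 by 1.06, mml-1 by 1.09, pha-4 by 1.05 and pqm-1 by 1.25 (limma adjusted p of 3.3e-04, 1.8e-04, 1.7e-06, 8.9e-04 and 9.5e-07). On the neuron scale these differences were 0.13, 0.056, 0.083, 0.044 and 0.24, and none of them passed the test. skn-1, which encodes the factor of the oxidative stress response, was at 82.2, 88.6 and 55.6 against 68.7, 86.9 and 78.2 CPM (log2 difference -0.07, limma adjusted p = 0.79). Only on the deposited scale did skn-1 lack a call. It was higher after median centring (0.88, limma adjusted p = 0.00055) and lower on the neuron scale (-1.08, limma adjusted p = 0.0002). For kri-1 and tcer-1, which act with daf-16 in this pathway, the differences were 0.93 (limma adjusted p = 2.4e-04) and -0.97 (limma adjusted p = 4.2e-09). That of kri-1 changed sign on the neuron scale, and that of tcer-1 was -0.017 after median centring (limma adjusted p = 0.89). daf-36, which starts the synthesis of the steroid ligand of DAF-12, was at 38.1, 42.3 and 33.7 against 39.4, 36.7 and 38.5 CPM (log2 difference -0.01, limma adjusted p = 0.92). This too held on the deposited scale only. daf-36 was higher after median centring (0.94, limma adjusted p = 9.3e-08) and lower on the neuron scale (-1.02, limma adjusted p = 9.9e-06).

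Several genes known to depend on these factors had larger differences. The metallothionein gene mtl-1 was at 44.3, 67.5 and 75.4 CPM in glp-1(e2141) and 2.17, 1.27 and 1.81 CPM in fem-3(q20) (log2 difference 5.06, SE 0.42, limma adjusted p = 1.2e-11). The superoxide dismutase gene sod-3 was at 15.4, 12.4 and 22.5 CPM in glp-1(e2141) and 1.11, 1.67 and 0.987 CPM in fem-3(q20) (log2 difference 3.60, SE 0.47, limma adjusted p = 6.9e-08). Neither pair of groups overlapped, and both genes stayed higher on all 3 scales. Steroid dehydrogenase gene stdh-1 was at 394, 513 and 456 against 54.02, 54.2 and 55.3 CPM (log2 difference 3.05, SE 0.12, limma adjusted p = 3.3e-19), and the related stdh-2 at 1.49, 1.53 and 1.96 against 1.11, 0.750 and 2.63 CPM, with overlapping groups. The lysosomal lipase gene lipl-4 was at 12.1, 8.19 and 15.8 against 2.29, 3.17 and 3.89 CPM (log2 difference 1.89, SE 0.47, limma adjusted p = 7.2e-04). Its lipid chaperone lbp-8 was at 2.48, 0.687 and 2.34 against 0.433, 0.346 and 0.493 CPM (log2 difference 1.67, limma adjusted p = 0.0016), and lost its call with the samples grouped by agent tag. On the neuron scale neither lipl-4 (0.88, limma adjusted p = 0.08) nor lbp-8 (0.66, limma adjusted p = 0.2) passed the test.

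Fat metabolism genes were mostly higher. Of 24 genes for making, desaturating and storing fatty acids, 17 were higher and 4 lower (19 and 4 after median centring, 7 and 9 on the neuron scale; median 1.12). The stearoyl-CoA desaturase gene fat-6, which makes oleic acid, was at 1064, 1265 and 901 CPM in glp-1(e2141) and 188, 197 and 204 CPM in fem-3(q20) (log2 difference 2.44, SE 0.17, limma adjusted p = 1.8e-13). Its regulator nhr-80 was at 65.1, 70.0 and 76.6 against 30.9, 30.8 and 29.9 CPM (log2 difference 1.204, SE 0.14, limma adjusted p = 7.4e-09). acs-1, an acyl-CoA synthetase gene, was at 847, 848 and 746 against 179, 177 and 169.9 CPM (log2 difference 2.21, SE 0.10). The elongase genes elo-7 and elo-8 went the other way: elo-8 had 0 reads in glp-1(e2141) and 139.8, 156 and 158 CPM in fem-3(q20), and elo-7 had 1 read against 991, a ratio of 974 (95% exact interval 174 to 38511).

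The heat shock genes split by kind. Transcripts of hsf-1 (WBGene00002004, chromosome I from 11953507 to 11963085) were at 26.9, 24.9 and 18.4 CPM in glp-1(e2141) and 52.0, 65.1 and 59.6 CPM in fem-3(q20), a log2 difference of -1.34 (SE 0.21, limma adjusted p = 1.6e-06) without overlap of the groups. The difference after median centring was -0.39 and did not pass the test, and hsf-1 also lost its call among libraries with agreeing labels only. Of the genes that act on HSF-1, hsb-1 and ddl-2 were higher by 0.92 and 0.62 and ddl-1 differed by -0.84, and hsb-1 and ddl-2 changed sign on the neuron scale and ddl-1 after median centring. By agent tag (0.14, limma adjusted p = 0.74) and without replicate 3 of fem-3(q20) hsb-1 lost its call, and without replicate 1 ddl-1 did.

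Inducible heat shock genes were higher in glp-1(e2141) although no heat was applied beyond growth at 25°C. Of 11 genes tested, 10 were higher and 1 lower (10 and 0 after median centring, 8 and 2 on the neuron scale), with a median of 1.98. The stress-inducible hsp-70 (WBGene00002026, chromosome I from 9320325 to 9322519) was at 60.3, 70.3 and 61.2 CPM in glp-1(e2141) and 4.64, 6.46 and 3.73 CPM in fem-3(q20) (log2 difference 3.69, SE 0.38, limma adjusted p = 1.0e-09). The small heat shock gene hsp-16.2, on chromosome V, was at 36.0, 31.5 and 37.9 CPM in glp-1(e2141) and 4.76, 2.88 and 1.26 CPM in fem-3(q20) (log2 difference 3.69, SE 0.58, limma adjusted p = 1.9e-06), and hsp-16.41 at 11.3, 14.9 and 21.5 against 1.36, 1.21 and 0.493 CPM (log2 difference 3.85). In hsp-70, hsp-16.2 and hsp-16.41 the lowest glp-1(e2141) library lay well above the highest fem-3(q20) library. F44E5.4 and F44E5.5, neighbouring hsp70 genes of near-identical sequence, were at 46.2, 51.5 and 54.3 against 13.98, 15.3 and 9.54 CPM and at 53.6, 54.8 and 56.2 against 14.9, 17.2 and 10.4 CPM. The gene pairs named hsp-16.1 and hsp-16.48 are copies whose reads cannot be assigned with certainty, with log2 differences from 1.88 to 2.35. aip-1, the lower gene of the list, is a stress-induced proteasome adaptor gene at 11.4, 9.36 and 10.4 against 17.3, 20.8 and 17.5 CPM, and changed sign after median centring. With the samples grouped by agent tag instead of title, 2 of the 11 genes were higher: hsp-70 and hsp-43, whose difference of 0.40 changed sign on the neuron scale. The glp-1(e2141) library whose tag names auxin had 61.2 CPM of hsp-70, between the 60.3 and 70.3 CPM of the libraries with agreeing labels, and among libraries with agreeing labels alone 9 of the 11 genes were higher, without hsp-16.2.

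The constitutive chaperones differed the other way on the deposited scale. Of 29 genes, 24 (82.8%) were lower and 2 (6.90%) higher, with a median of -0.72, beside 40.8% and 29.7% of all genes tested. After median centring 6 were lower and 12 higher, beside 28.4% and 44.3% of all genes tested. On the neuron scale 28 were lower and 1 higher, beside 52.5% and 9.84%. The cytosolic hsp70 gene hsp-1 was at 1198, 1176 and 1184 CPM in glp-1(e2141) and 1663, 1929 and 1943 CPM in fem-3(q20) (log2 difference -0.63, SE 0.13, limma adjusted p = 1.1e-04), and 0.32 after median centring. hsp-90 was at 1593, 1813 and 1662 CPM in glp-1(e2141) and 2487, 2798 and 2518 CPM in fem-3(q20) (log2 difference -0.62, SE 0.16, limma adjusted p = 0.0011), and 0.33 after median centring. With the samples grouped by agent tag 17 of the 29 genes were lower, and hsp-1 (-0.28, limma adjusted p = 0.65) and hsp-90 (-0.28, limma adjusted p = 0.7) did not pass the test. Mitochondrial chaperone genes kept their direction on all 3 scales, with hsp-6 at 151, 170.3 and 125 against 642, 698 and 728 CPM and hsp-60 at 52.3, 57.3 and 74.9 against 192, 220.3 and 249 CPM. The Hsp90 co-chaperone gene fkb-6 was at 52.4, 49.5 and 52.4 against 238, 224 and 248 CPM (log2 difference -2.20). Of the 2 BiP genes of the endoplasmic reticulum, hsp-3 was at 2083, 2137 and 2041 CPM in glp-1(e2141) and 509.9, 595 and 506 CPM in fem-3(q20) (log2 difference 1.96, SE 0.12, limma adjusted p = 7.6e-15), higher on all 3 scales, and hsp-4 at 564, 609 and 531 against 944, 957 and 953 CPM, with a log2 difference of -0.75 that turned to 0.21 after median centring. The myosin chaperone gene unc-45 was higher by 0.35 on the deposited scale and changed sign on the neuron scale, and it lost its call by agent tag (0.21, limma adjusted p = 0.21) and without replicate 3 of fem-3(q20).

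**Figure D4:**
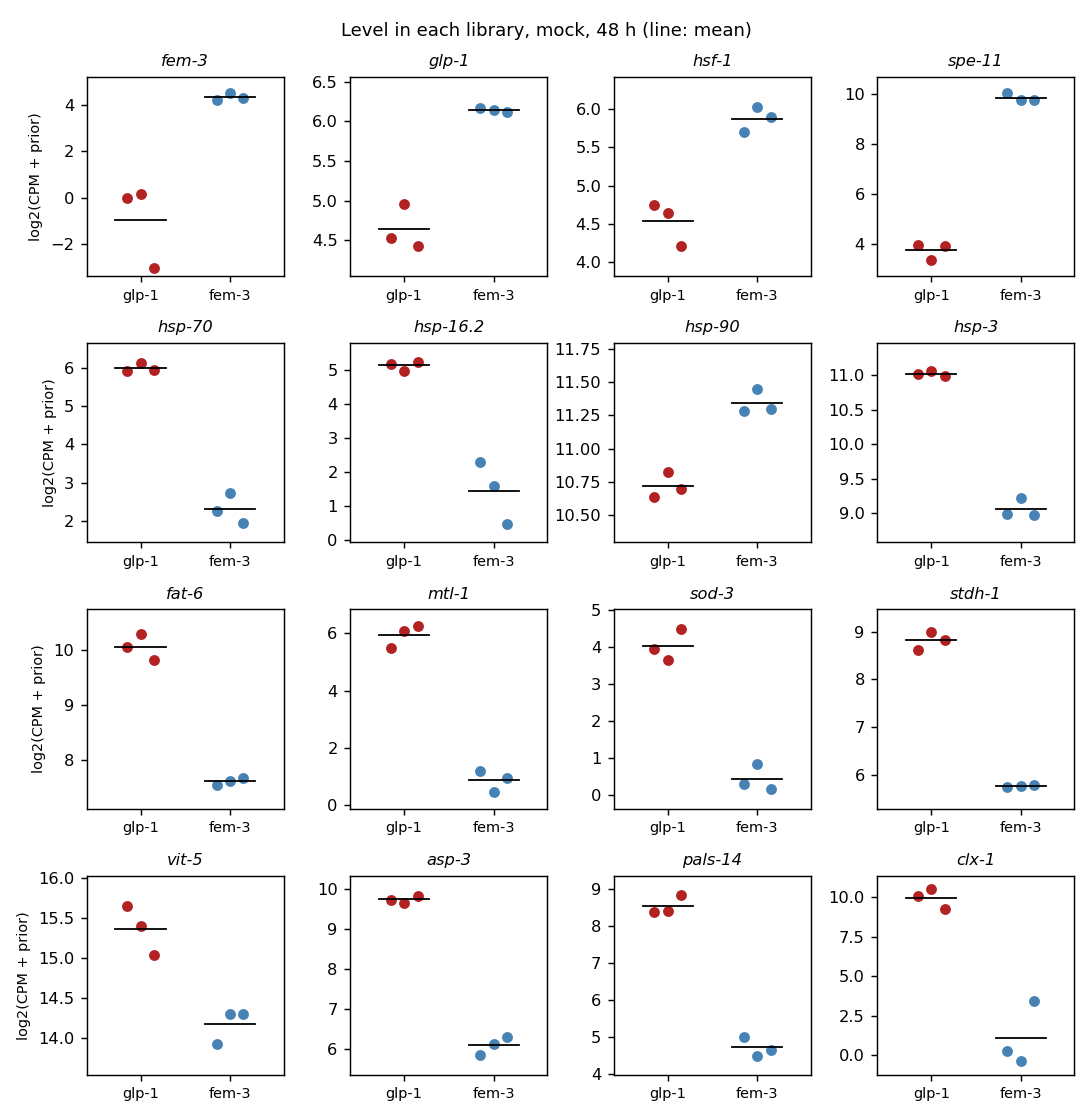
Each panel shows 1 gene, with log2(CPM + prior) in each of the 3 glp-1(e2141) and 3 fem-3(q20) libraries as points and their mean as a line; each panel has its own y axis, which does not start at 0. hsp-70, hsp-16.2, hsp-3, mtl-1, sod-3, fat-6, stdh-1, vit-5, asp-3, pals-14 and clx-1 are higher in all glp-1(e2141) libraries, hsf-1, hsp-90, spe-11, glp-1 and fem-3 are higher in all fem-3(q20) libraries, and no panel has overlapping groups.

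Among cuticle, defence and detoxification genes, more were higher than lower in glp-1(e2141). Of 87 collagen genes tested (115 in the table), 50 were higher and 8 lower (57 and 6 after median centring, 37 and 8 on the neuron scale; median 1.72). col-80 was at 94.997, 103.7 and 79.7 against 0.557, 4.56 and 4.33 CPM, whereas dpy-14 had 1 read in glp-1(e2141) and 524 in fem-3(q20), a ratio of 515 (95% exact interval 92.0 to 20381). Among the C-type lectin genes tested 47 (45.2%) were higher and 18 (17.3%) lower (55 and 12, then 37 and 24; median 1.27). Over all genes tested, these shares were 29.7% and 40.8% on the deposited scale. The lectin genes clec-79 and clec-123 had no read in glp-1(e2141) and 329.6, 321 and 330.2 and 297, 309.6 and 308 CPM in fem-3(q20), at least 1836-fold and 1711-fold lower. For lysozymes, saposins and antimicrobial peptides 39 of 69 were higher and 2 lower (50 and 1, then 25 and 7; median 1.38). The lysozyme gene lys-2 was at 314, 308 and 411 CPM in glp-1(e2141) and 24.3, 14.9 and 23.3 CPM in fem-3(q20) (log2 difference 4.06, SE 0.16, limma adjusted p = 3.6e-19).

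Among detoxification genes, 37 of 61 cytochrome P450 genes were higher and 8 lower (42 and 4 after median centring, 21 and 14 on the neuron scale), and 54 of 96 glutathione and glucuronosyl transferase genes were higher and 5 lower (77 and 4, then 28 and 15). Their median differences were 1.27 and 1.202. cyp-25A1 was at 156, 169 and 195 against 8.04, 7.90 and 9.81 CPM (log2 difference 4.32, SE 0.14), and gst-4, a known target of SKN-1, at 66.1, 52.3 and 73.5 against 6.93, 7.21 and 7.62 CPM (log2 difference 3.11, SE 0.19). cyp-31A2, of a pair needed for the eggshell, had 0 reads against 8.54, 12.3 and 7.24 CPM. In the list of antioxidants 12 of 23 were higher and 6 lower (14 and 2, then 3 and 8), and the mitochondrial sod-2 was lower, at 27.0003, 23.4 and 30.1 against 84.9, 75.2 and 84.8 CPM (log2 difference -1.61), while sod-3 was higher. Autophagy and lysosome genes had 26 of 34 higher and 0 lower (32 and 0, then 3 and 8), with atg-16.2 at 48.98, 65.6 and 56.4 against 16.8, 16.4 and 15.1 CPM and atg-2 at 377, 374 and 281 against 89.9, 115 and 95.1 CPM.

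The pals genes are a nematode family switched on by intracellular pathogens and proteotoxic stress. Of 31 tested, 20 were higher and 0 lower (25 and 0 after median centring, 12 and 2 on the neuron scale), and 13 were higher among libraries with agreeing labels. Their summed level was 1503, 1650.2 and 1867 CPM in glp-1(e2141) and 406, 321 and 316 CPM in fem-3(q20). pals-14 (WBGene00009061, chromosome I from 13139122 to 13141898) was at 331, 336 and 459 CPM in glp-1(e2141) and 31.8, 22.4 and 24.999 CPM in fem-3(q20) (log2 difference 3.82, SE 0.28, limma adjusted p = 6.5e-13), and pals-6 at 208, 265 and 270.1 against 32.6, 28.2 and 24.6 CPM (log2 difference 3.12).

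Genes of protein synthesis and turnover were lower by about the amount that median centring adds back. Over all genes tested, 40.8% were lower and 29.7% higher as deposited, 28.4% and 44.3% after median centring, and 52.5% and 9.84% on the neuron scale. Of 79 cytosolic ribosome genes, 77 were lower and 0 higher (8 and 9 after median centring, 79 and 0 on the neuron scale), with a median of -0.93, and 41 were lower among libraries with agreeing labels. Of 33 proteasome genes, 32 were lower and 0 higher (13 and 6, then 33 and 0; median -1.13). The mitochondrial ribosome had 58 of 66 lower and 0 higher (35 and 1, then 63 and 0), and its median of -1.62 lay beyond the shift of centring. Members at the far end were rpl-42 (0 reads in glp-1(e2141), 46.2, 43.3 and 51.1 CPM in fem-3(q20)), rpl-11.1 (4.46, 4.12 and 7.60 against 614, 538 and 599.8 CPM) and rpn-6.2 (2.42, 2.59 and 0.760 against 105, 118 and 113 CPM). The respiratory chain had 26 of 37 genes lower and 6 higher (5 and 24 after median centring, 31 and 3 on the neuron scale), and 14 lower among libraries with agreeing labels.

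The difference between the strains grew or shrank over the 48 h for a part of the genes. The same strains had 3 mock libraries each at 8 h and 24 h, by title. At both times the agent tag named auxin for replicate 3 of glp-1(e2141) and replicates 2 and 3 of fem-3(q20). Replicate 1 of glp-1(e2141) at 24 h stood apart, with 9131588 reads, 26.4% of them on rRNA genes. Compared with 8 h, the difference (glp-1 minus fem-3) had risen by 48 h in 644 genes (4.51%) and fallen in 725 (5.08%). Compared with 24 h, it had risen in 168 genes (1.18%) and fallen in 121 (0.848%). After median centring 880 genes (6.17%) had risen and 439 (3.08%) fallen from 8 h. Without that 24 h library the counts were 812 and 1047 from 8 h and 143 and 113 from 24 h. Without replicate 1 of fem-3(q20) at 48 h, 92 and 71 genes were called from 24 h, and without replicate 2, 110 and 78.

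Of the pals genes, 15 of 31 had risen and 0 fallen from 8 h (16 and 0 after median centring), beside 4.51% and 5.08% of all genes tested. pals-14 averaged 40.1 ± 10.4, 106 ± 23.9 and 375 ± 72.3 CPM (SD, n = 3) in glp-1(e2141) at 8, 24 and 48 h. In fem-3(q20) it averaged 115 ± 32.5, 62.7 ± 7.57 and 26.4 ± 4.86 CPM (SD, n = 3). Its difference was -1.51 at 8 h and 3.82 at 48 h, so the mean was lower in glp-1(e2141) at 8 h and higher at 48 h (change 5.33, limma adjusted p = 9.2e-10). For ilys-2, an invertebrate-type lysozyme gene, the strain difference fell (change -4.36, limma adjusted p = 2.5e-07). In fem-3(q20) ilys-2 was at 0.875 ± 0.565 CPM at 8 h and 32.4 ± 3.67 CPM at 48 h (SD, n = 3). Its glp-1(e2141) libraries were at 2.02, 2.29 and 2.83 CPM at 8 h and 4.03, 3.86 and 4.75 CPM at 48 h.

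In the intestinal list 8 of 23 genes had risen and 5 fallen, and in the inducible heat shock list 2 of 11 had risen and 1 fallen. For asp-3 the fem-3(q20) level went from 452 ± 19.3 to 68.6 ± 10.7 CPM (SD, n = 3) while glp-1(e2141) went from 1164 ± 56.5 to 859 ± 54.6 CPM (change of the difference 2.29, limma adjusted p = 5.6e-08). hsp-70 went from 6.44 ± 0.975 to 63.9 ± 5.53 CPM in glp-1(e2141) and from 3.77 ± 1.15 to 4.94 ± 1.39 CPM in fem-3(q20) (SD, n = 3; change 2.91, limma adjusted p = 5.3e-04). The strain difference of hsp-3 rose by 1.06 (limma adjusted p = 6.4e-05), and that of hsf-1 changed by -0.34 without passing the test (limma adjusted p = 0.57). By family, 15 of 61 P450 genes had risen and 0 fallen, whereas 0 of 79 cytosolic ribosome genes had risen and 46 fallen (31 after median centring), and 25 of 66 mitochondrial ribosome genes had fallen (16 after median centring).

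**Figure D5:**
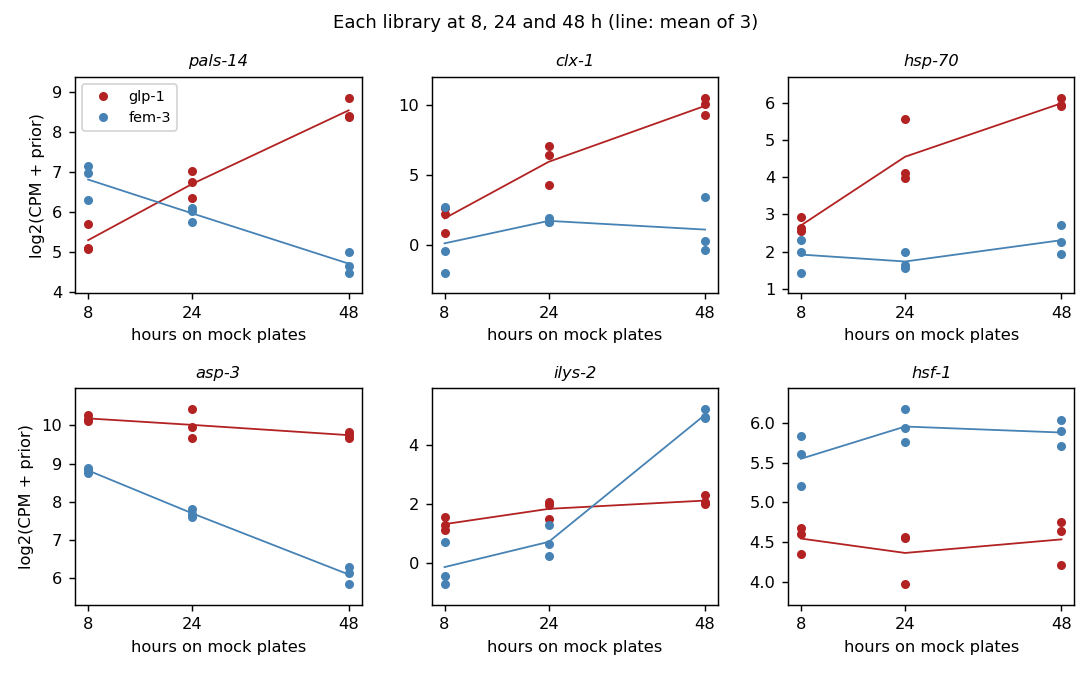
Points are single mock libraries at 8, 24 and 48 h on plates, as log2(CPM + prior), with a line through the mean of the 3 libraries of each strain; each panel has its own y axis. pals-14 rises in glp-1(e2141) from a mean of 40.1 to 375 CPM and falls in fem-3(q20) from 115 to 26.4 CPM, ilys-2 rises in fem-3(q20), and hsf-1 is lower in glp-1(e2141) at each time.

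The same strains at 48 h with auxin gave 5 further libraries (2 of glp-1(e2141) and 3 of fem-3(q20), by title) that are not among the 6 compared, though they are part of the table on which the spread and the filters were set. Among them, the agent tag named the mock treatment for replicate 3 of glp-1(e2141) and replicates 2 and 3 of fem-3(q20). Of the 10069 DE genes, 99.2% had the same sign in these 5 libraries, with a Pearson correlation of 0.98 of the differences across 14269 genes, which are not independent replicates. hsp-70, hsp-16.2 and hsp-16.41 had differences of 1.13, 1.74 and -0.78 in the auxin libraries, beside 3.69, 3.69 and 3.85 in the mock. Whether these differ was not tested here.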

How the data were processed

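Whole-animal RNA was sequenced after poly(A) selection from 3 mock-treated libraries of each strain at 48 h. The authors used STAR for alignment to WBcel235 and featureCounts for gene counts, then dropped weakly expressed genes. The authors deposited the values as log2 CPM with a prior and a normalized library size (CPM summed to 850943 to 946942 in the 6 libraries), which from the values is 0.124 CPM, for 15364 genes in 35 libraries of these strains. Every value came out as a whole number of reads (100% within 0.1 of a read), from which CPM per library was computed, and intervals and floors cover counting error only. Libraries of the table had 9131588 to 19964797 reads.

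Genes with at least 1 CPM in 25% of the 35 libraries were tested (14269, with 1095 left out). All groups of the table were fitted together with limma 3.58.1 (R 4.3.3, empirical Bayes with trend), with Benjamini-Hochberg adjustment over all genes tested, and genes were called below an adjusted p of 0.05 if their level averaged 2 CPM or more across the table. The change of the strain difference with time was the interaction term of the same fit. In simulated data of 14269 genes, 67 genes were changed 1.5-fold, 67 changed 2-fold and 66 changed 4-fold, with the same dispersion for all genes. Calls were made for 7.46%, 65.7% and 100% of them. The data differ from this setting, with 10069 genes called, so these rates do not give the share of real changes found here. A gene without reads in 1 strain was given a bound from 3 reads per library, averaged as 0.178 CPM over the glp-1(e2141) libraries. Genes were named from Ensembl release 115.

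The groups compared and the 35 gene lists were chosen with earlier results of these data known. Genes named are the 10 with the largest differences each way, the extremes and fixed members of each list and the 5 largest changes with time each way. The genes hsp-1, hsp-90, hsp-4, hsp-60, rme-2, glh-1, pgl-1, elt-2, asb-1, asb-2, rpl-11.2, cyc-2.1, act-4, unc-119, spch-1, spch-2 and perm-2 were added after their values were seen. Results were recomputed under 18 other settings, and under 3 more that were chosen after seeing the data: weights from the recovered reads (limma's voom), leaving out the shallow 24 h library, and centring on the neuron list.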

Additional observations from a re-analysis of the deposited data

Results flagged for a closer look

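A test of the difference between time points singled out genes whose strain difference (glp-1 minus fem-3, log2) was not the same at 48 h as earlier. Given here are the 5 genes with the largest rise and the 5 with the largest fall in each of the 2 comparisons, all with a limma adjusted p under 0.05.

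From 8 h to 48 h the strain difference rose by 7.07 in clx-1, 6.63 in pals-9, 6.23 in clec-61, 6.14 in pals-5 and 5.82 in F23B2.10. In glp-1(e2141), pals-5 went from a mean of 1.97 to 30.3 CPM, and in fem-3(q20) from 13.2 to 3.86 CPM. It changed by -7.03 in C09F9.2, -5.71 in dhc-4, -5.38 in K08E3.2, -5.26 in trx-3 and -5.13 in sym-1. C09F9.2 went from 21.7 to 0.588 CPM in glp-1(e2141) and from 5.79 to 16.9 CPM in fem-3(q20). dhc-4 had 1 read and K08E3.2 had 0 reads in the glp-1(e2141) libraries at 48 h, so the size of their change depends on the prior. Among libraries with agreeing labels, dhc-4, trx-3, pals-9, pals-5 and F23B2.10 lost their call. Their changes there were -5.94, -5.77, 5.99, 7.15 and 6.06.

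From 24 h to 48 h it rose by 5.34 in pals-11, 4.75 in spe-11, 4.31 in clec-61, 3.33 in comt-4 and 3.26 in tyr-3. The sperm gene spe-11 was at 15.6, 10.2 and 15.4 against 1061, 865 and 879.6 CPM at 48 h and averaged 0.461 and 0.773 CPM in glp-1(e2141) at 8 h and 24 h. The change was -4.02 in ilys-2, -4.02 in sym-1, -3.91 in F40H3.3, -3.88 in C09F9.2 and -3.57 in col-38. The 24 h comparison includes the glp-1(e2141) library of 9131588 reads with 26.4% of reads on rRNA genes, and the 10 changes from 24 h kept their direction and call without it. With the samples grouped by agent tag, pals-11 (5.97, limma adjusted p = 0.16), F40H3.3 (-2.75, limma adjusted p = 0.096) and col-38 (-2.44, limma adjusted p = 0.23) did not pass the test. Without replicate 2 of glp-1(e2141) at 48 h, tyr-3 did not pass it (3.10, limma adjusted p = 0.051). Among libraries with agreeing labels, most of these changes lost their call. They were sym-1, F40H3.3, C09F9.2, col-38, pals-11, spe-11, clec-61 and tyr-3, which all kept their direction.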

How the results depend on the processing

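Summary results were the counts, the shares of called genes on X and the median of all genes. Of 769 pairs of a summary result and an alternative, 721 stayed close to the main value. For counts and shares, close means within 1.5 times. For the median it means a shift below the SD of library medians within a group (0.028). Of 3446 pairs of a named value and an alternative, 3302 kept their call (or had none in either fit). Of the rest, 91 lost and 28 gained the call, and 25 changed sign with a call in at least 1 of the 2 fits. With median centring the median of all genes was 0.70, 439 genes fell from 8 h, and the counts lower were 6 for constitutive chaperones, 8 for the cytosolic ribosome, 13 for the proteasome, 35 for the mitochondrial ribosome and 5 for the respiratory chain. In the same setting 45 neuropeptide genes were higher, X held 1.01% of the lower genes, and the values that changed sign became 0.23 for ergo-1, 0.12 for aip-1, 0.11 for ddl-1, 0.94 for daf-36, 0.88 for skn-1, 0.82 for rpn-6.1, 0.32 for fem-2, 0.32 for hsp-1, 0.33 for hsp-90, 0.21 for hsp-4 and 0.91 for cyc-2.1. With centring on the neuron list 1404 genes were higher, 167 fell from 8 h and 29 from 24 h, the median was -1.26, X held 3.58% of the lower genes, and the counts higher were 5 for longevity, 7 for fat, 6 for muscle, 2 for neurons, 7 for intestine, 25 for lysozymes, 21 for P450, 28 for transferases, 3 for antioxidants, 3 for autophagy, 2 for neuropeptides and 12 for pals genes. There the values that changed sign, counted in the same way, became -0.45 for tra-2, -0.17 for tra-1, -0.41 for perm-4, -0.71 for perm-2, -0.10 for vit-1, -0.30 for vit-6, -0.66 for unc-45, -0.088 for hsb-1, -0.39 for ddl-2, -0.61 for hsp-43, -0.082 for kri-1, -0.63 for daf-16, -0.72 for rpl-11.2 and -0.034 for act-4. Both centrings add a constant to every difference, which is what moves these values.

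The median of all genes was also -0.18 with centring on the 4963 genes with at least 10 CPM in all 6 libraries, -0.19 with a pseudocount of 1 CPM and -0.22 without the filter on low values. Library quality weights gave 974 genes rising and 1393 falling from 8 h, and 294 and 336 from 24 h. At 48 h the weight was 0.28 for replicate 3 of glp-1(e2141), 0.83 and 0.90 for its replicates 1 and 2, and 1.31 to 1.87 for fem-3(q20). Libraries with agreeing labels gave 169 and 268 from 8 h, 66 and 58 from 24 h, a median of -0.28, 41 cytosolic ribosome and 14 respiratory genes lower, and 5 neuropeptide and 13 pals genes higher, with fewer libraries in the fit, and 37 named values lost their call, among them hsf-1, hsp-1, hsp-90, hsp-16.2, vit-5, lipl-4, elt-1 and unc-119. Grouping by agent tag left 2 inducible heat shock genes higher and cost 16 named values their call, and the cause was not tested. With 1 of the 6 libraries left out in turn, 4007 to 4084 genes were higher, 5686 to 5739 lower, 540 to 624 rose and 531 to 689 fell from 8 h, 92 to 194 rose and 71 to 152 fell from 24 h, and the median was -0.29 to -0.24. The low ends from 24 h came without replicate 1 of fem-3(q20). The fit with a replicate block called 4256 genes higher and 5840 lower, and changed none of the counts by over 1.5 times. Same-numbered libraries correlated at -0.0085, 0.038 and 0.038 in their deviations from the group means. Deviations from a mean of 3 libraries sum to 0, so these values cannot tell whether the replicate numbers pair the samples. Not every library correlated best with its own number. Depth allowed 0.159 to 0.190 CPM for a gene with 0 reads, which limits the size of the differences of the sperm genes.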

Other observations

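Several proteins with more than 1 gene were measured as a set of paralogs in which 1 member was lower in glp-1(e2141) and another was higher or differed less. They were picked after their values were seen and carry no test as a group. The ATP synthase subunit b genes asb-1 and asb-2 were at 9.35, 8.14 and 11.02 against 149.9, 150.1 and 158 CPM and at 309.9, 303 and 352 against 95.7, 99.8 and 95.9 CPM (glp-1(e2141) first; log2 differences -3.9998 and 1.72). asb-1 lies on chromosome III and asb-2 on X. The cytochrome c genes cyc-2.2 and cyc-2.1 were at 0 reads against 115, 99.9 and 91.3 CPM and at 60.6, 72.8 and 95.1 against 79.0, 75.2 and 77.2 CPM, and for cyc-2.1 the groups overlapped. The complex III genes ucr-2.3 and ucr-2.1 were at 0.805, 1.06 and 1.58 against 109, 117 and 127 CPM and at 81.4, 90.6 and 80.1 against 22.9, 24.7 and 26.0 CPM (log2 differences -6.57 and 1.77). The ribosomal genes rpl-11.1 and rpl-11.2 were at 4.46, 4.12 and 7.60 against 614, 538 and 599.8 CPM and at 387, 386 and 521 against 369.7, 352 and 330.1 CPM, and the latter did not pass the test (limma adjusted p = 0.063). The proteasome genes rpn-6.2 and rpn-6.1 differed by -5.93 and -0.13, and rpn-6.1 changed sign after median centring. Among actin genes, act-2 on chromosome V differed by -2.08 and act-4 on X by 0.98, which changed sign on the neuron scale.

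Of 68 neuropeptide genes tested, 22 (32.4%, beside 29.7% of all genes tested) were higher and 1 was lower (45 and 1 after median centring, 2 and 7 on the neuron scale; 5 higher among libraries with agreeing labels), with a median of 0.69. nlp-40, which the intestine releases to time defecation, was at 505, 578 and 581 against 141, 140.3 and 168 CPM (log2 difference 1.89, SE 0.10), and the lower gene, nlp-4, at 0.557, 0.423 and 0 against 23.1, 24.1 and 19.6 CPM. Of 10 insulin-like peptide genes tested, 2 (20%) were higher and 2 (20%) lower on the deposited scale, beside 29.7% and 40.8% of all genes tested (3 and 1 after median centring, 1 and 2 on the neuron scale). ins-7 was at 7.25, 14.8 and 14.7 against 27.8, 22.7 and 20.7 CPM (log2 difference -1.01, SE 0.38) and lost its call without replicate 1 of either strain. In the same order ins-37 was at 0.372, 0 and 0 against 40.9, 38.0 and 46.7 CPM, ins-19 at 6.87, 9.30 and 9.82 against 0.557, 0.692 and 0.768 CPM and ins-27 at 3.28, 1.69 and 7.35 against 0.433, 1.79 and 0.548 CPM.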
